A study of Mus musculus with 2 samples.

Results

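The genes described here build, carry and anchor the cilium. They are the intraflagellar transport genes, the Bardet-Biedl (BBS) genes, the tectonic genes, the numbered centrosomal Cep genes, Mks1 and the genes of the kinesin-2 motor. They were chosen by symbol alone, as Ift, Bbs, Tctn or Cep followed by digits, or Mks1, Kif3a, Kif3b, Kif3c or Kifap3. This took 61 of the 17189 genes in the authors' table of EpA cells, of which 14 were Ift, 8 Bbs, 2 Tctn and 32 Cep genes. Ependymal cells form the lining of the cord's central canal, and EpA is the authors' name for one subset. The injured group was 1 library prepared on day 3 after the dorsal funiculus was cut, and the uninjured group was 1 library from intact cord. Both came from adult C57BL/6J mice of at least 12 weeks that carried Troy-CreERT2+/- and Rosa26-tdTomato. In both groups a 5 mm length of cord was dissociated with papain, and tdTomato-positive cells were sorted for droplet 3′ RNA sequencing. Cells were thus marked through the promoter of Troy, a receptor gene also called Tnfrsf19, and the sort leaves out ependymal cells without the reporter. How many animals gave each library is not given in the sources used here. With 1 library per condition no test was possible, differences are given by size alone, and ranges in brackets are 95% intervals that cover counting error alone.

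A cilium grows from a basal body, a centriole that has docked at the cell surface through its distal appendages. The transition zone at its base gates what enters, kinesin-2 carries trains of intraflagellar transport (IFT) proteins outward, and the IFT-A complex serves the way back. The BBSome, built from BBS proteins, links membrane cargo to these trains. Ependymal cells bear motile cilia, but these genes also serve the single primary cilium that many other cell types carry, and several Cep proteins act at the centrosome of dividing cells instead.

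Promoter sequences are shown because many cilium genes carry an X-box, a motif bound by RFX transcription factors. The motif was searched as GTNNCC followed after 1 to 4 bases by GNAAC, on both strands of RefSeq promoters of build GRCm38.p6 that run from 250 bases before to 50 bases after the transcription start. A promoter was matched for 53 of the 61 genes, and 15 of these 53 (28.3%) held an X-box, against 7.20% of 12266 genes of the EpA table and 5.94% of all 27025 genes. The RFX core GTTGCC, which can lie within an X-box, was found for 37.7% of the 53 genes, against 15.2% and 14.1%. The promoters of the 53 genes had a median GC content of 60.7%, against 60.0% for the genes of the EpA table. An X-box was present in 3 of 4 transition zone genes, 3 of 6 BBSome genes and 0 of 4 kinesin-2 genes. For comparison, 43.2% of 37 motile cilium genes with a promoter held one. Below are 6 of the 15, written 5′ to 3′ in the gene's direction, with the X-box in capitals and flanks of 20 bases. The first 3 belong to BBSome and transition zone genes with less than 0.5 of the uninjured level in injured EpA cells, though their counting intervals reach past 0.5. The next 2 belong to genes with smaller differences, and the last to Cep112, which did not differ between the libraries beyond its counting interval.
Bbs7, chr3:36613477-36613530, minus strand: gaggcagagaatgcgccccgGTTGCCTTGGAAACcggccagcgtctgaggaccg
Mks1, chr11:87853171-87853224, plus strand: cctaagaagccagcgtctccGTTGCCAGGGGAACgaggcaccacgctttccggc
Tctn3, chr19:40612339-40612391, minus strand: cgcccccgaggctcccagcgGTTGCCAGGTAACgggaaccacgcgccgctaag
Ift57, chr16:49699214-49699266, plus strand: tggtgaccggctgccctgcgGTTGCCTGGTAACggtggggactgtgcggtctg
Cep41, chr6:30693846-30693900, minus strand: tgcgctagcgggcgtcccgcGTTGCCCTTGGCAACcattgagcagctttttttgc
Cep112, chr11:108425162-108425215, plus strand: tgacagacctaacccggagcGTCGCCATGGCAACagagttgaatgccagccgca
The motif lies between 140 and 128 bases before the start in Tctn3, between 24 and 11 bases before it in Mks1 and between 84 and 71 bases before it in Cep112. A match is a stretch of letters and no measurement of binding.

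The authors' EpA table held 1004 injured and 555 uninjured cells, holding 25296289 and 7689179 UMIs (unique molecular identifiers, 1 per captured transcript). Depth per cell had a median of 20158 UMIs in injured and 11387 in uninjured cells, and mitochondrially encoded transcripts took a median of 6.76% and 11.2%. Each of the 61 genes had between 67 and 5592 UMIs over the injured EpA cells and between 6 and 2296 over the uninjured ones. All 7 ependymal markers looked for were present, at a summed level of 4006 counts per 1000000 UMIs (CPM) in injured and 13280 CPM in uninjured EpA cells. The other kept cells, 224 injured and 156 uninjured, had 475 and 409 CPM of them. Markers of endothelial cells summed to 8.50 and 16.4 CPM in the injured and uninjured EpA cells, and those of microglia or macrophages to 4.31 and 3.38 CPM. Those of pericytes or smooth muscle summed to 128 CPM in injured cells, with all 5 present, and to 28.0 CPM in uninjured cells, with Pdgfrb, Kcnj8 and Myh11 at 0. Those of oligodendrocyte progenitors summed to 31 CPM in injured and 0.260 CPM in uninjured EpA cells, with Sox10 at 0 in both and Cspg4 at 0 in the uninjured ones. Their part in the differences below was not tested. Of the barcodes named as EpA cells, 2 occurred in both libraries, and they were kept apart by library.

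Most of these cilium genes stood lower in injured than in uninjured EpA cells. Their summed level was 2586 CPM (2566 to 2606) in injured EpA cells and 4158 CPM (4113 to 4204) in uninjured ones. With a mean of both libraries of at least 10 CPM as the floor, 51 of the 61 genes were measured. The median of their log2 ratios, injured over uninjured, was −0.73, against −0.03 over all 8810 genes measured. Of the 51, 48 had a ratio below 0, 9 were at least 2-fold lower (background 10.6% of all genes measured) and 0 were 2-fold higher (background 9.76%). The 9 made up 17.6% of the 51. Without the floor, 50 of the 61 ratios were below 0 and 45 had a counting interval wholly below no difference.

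The count past 2-fold depended on which cells were taken and how they were weighed and scaled. It was 0 with each cell's CPM weighted alike, 1 after thinning every cell to 2000 UMIs and 0 in cells of 5000 to 20000 UMIs. The median log2 ratio was −0.40, −0.36 and −0.16 in these 3 settings. In cells of 5000 to 20000 UMIs the 9 genes lay between −0.56 and −0.03, with Bbs1 at −0.03, Mks1 at −0.16 and Ift88 at −0.17. The count was 16 with mitochondrially encoded UMIs left out of the total, and 21 with 2 higher in cells under 10% mitochondrially encoded UMIs. In UMIs per cell without scaling, which adds 0.86 to every log2 ratio, the count was 0 and the median was 0.13, on the other side of 0.

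Among the IFT-B genes, which form the train that moves outward, Ift88 had 48.9 CPM in injured and 108 CPM in uninjured EpA cells, a ratio of 0.453 (0.414 to 0.495). Ift88 (chr14:57424062-57517936, plus strand, GRCm38) is a core subunit without which cilia do not form in mouse. Ift20, a subunit also found at the Golgi, had 132 CPM in injured and 299 CPM in uninjured EpA cells (log2 ratio −1.18). Ift172, a peripheral subunit, had 24.9 and 53.6 CPM (−1.11). These 3 were the IFT genes with at least a 2-fold lower level.

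The other 8 IFT-B genes were lower by less than 2-fold, with log2 ratios between −0.85 and −0.31. The small GTPases of the complex stood at 156 CPM in injured and 282 CPM in uninjured EpA cells for Ift22, and at 108 and 182 CPM for Ift27. Ift81 and Ift74 bind tubulin as a pair, yet their ratios differed. Ift81 had 96.3 CPM in injured and 160 CPM in uninjured EpA cells (−0.73), and Ift74 had 221 and 288 CPM (−0.38). Ift52, a core subunit that joins IFT-B proteins, had the smallest difference, with 41.5 CPM in injured and 51.5 CPM in uninjured cells (−0.31). Ift46 had 49.8 and 82.3 CPM, Ift57 had 106 and 152 CPM, and Ift80 had 56.1 and 89.9 CPM. Summed, the 7 core genes stood at 722 CPM in injured and 1155 CPM in uninjured EpA cells, and the 4 peripheral ones at 319 and 594 CPM.

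All 3 IFT-A genes, whose products form the complex for the return trip, were lower. Ift140 had 13.6 CPM in injured and 27.1 CPM in uninjured EpA cells (−0.99), just short of 2-fold. Ift122 had 47.2 and 90.5 CPM (−0.94), and Ift43 had 163 and 265 CPM (−0.70).

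The 3 measured genes of the motor had a median log2 ratio of −0.26, a difference smaller than that of most IFT genes but close to that of Ift52. Kif3a, a motor subunit of kinesin-2, had 103 CPM in injured and 124 CPM in uninjured EpA cells (−0.26). Its partner Kif3b had 19.0 and 22.8 CPM (−0.26), and the accessory subunit Kifap3 had 122 and 155 CPM (−0.34). Kif3c, a further motor subunit known best from neurons, was under the floor with 8.02 CPM in injured and 7.93 CPM in uninjured cells. Kinesin-2 serves vesicle transport outside cilia too.

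All 6 BBSome genes had a ratio below 0, with a median log2 ratio of −1.0, and summed to 111 CPM in injured and 218 CPM in uninjured EpA cells. Bbs1 had 15.1 CPM in injured and 34.3 CPM in uninjured cells, a ratio of 0.440 (0.375 to 0.516). Bbs7 had 23.6 and 51.5 CPM (−1.13), and Bbs5 had 15.5 and 31.7 CPM (−1.03). Bbs4, Bbs2 and Bbs9 were lower by less than 2-fold. Bbs4 had 33.2 CPM in injured and 64.8 CPM in uninjured cells (−0.96), and Bbs2 had 11.6 and 21.1 CPM (−0.86). For Bbs9, with 12.4 and 15 CPM, the interval of the ratio (0.666 to 1.03) took in 1, so no difference was detectable at this depth. Bbs10 and Bbs12, chaperonin-like proteins that help to assemble the BBSome, lay under the floor, with 4.39 and 5.89 CPM in injured and 10.5 and 8.97 CPM in uninjured EpA cells.

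At the transition zone, Mks1 had 17.4 CPM in injured and 36.5 CPM in uninjured EpA cells (−1.07), and the tectonic gene Tctn3 had 12.9 and 27.7 CPM (−1.10). Both encode parts of the gate at the ciliary base. Cep290, which links the transition zone microtubules to the membrane, had 103 CPM in injured and 195 CPM in uninjured cells (−0.92). Tctn1 had 14.7 and 20 CPM (−0.45). The 4 genes summed to 148 CPM in injured and 279 CPM in uninjured EpA cells.

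**Figure D1:**
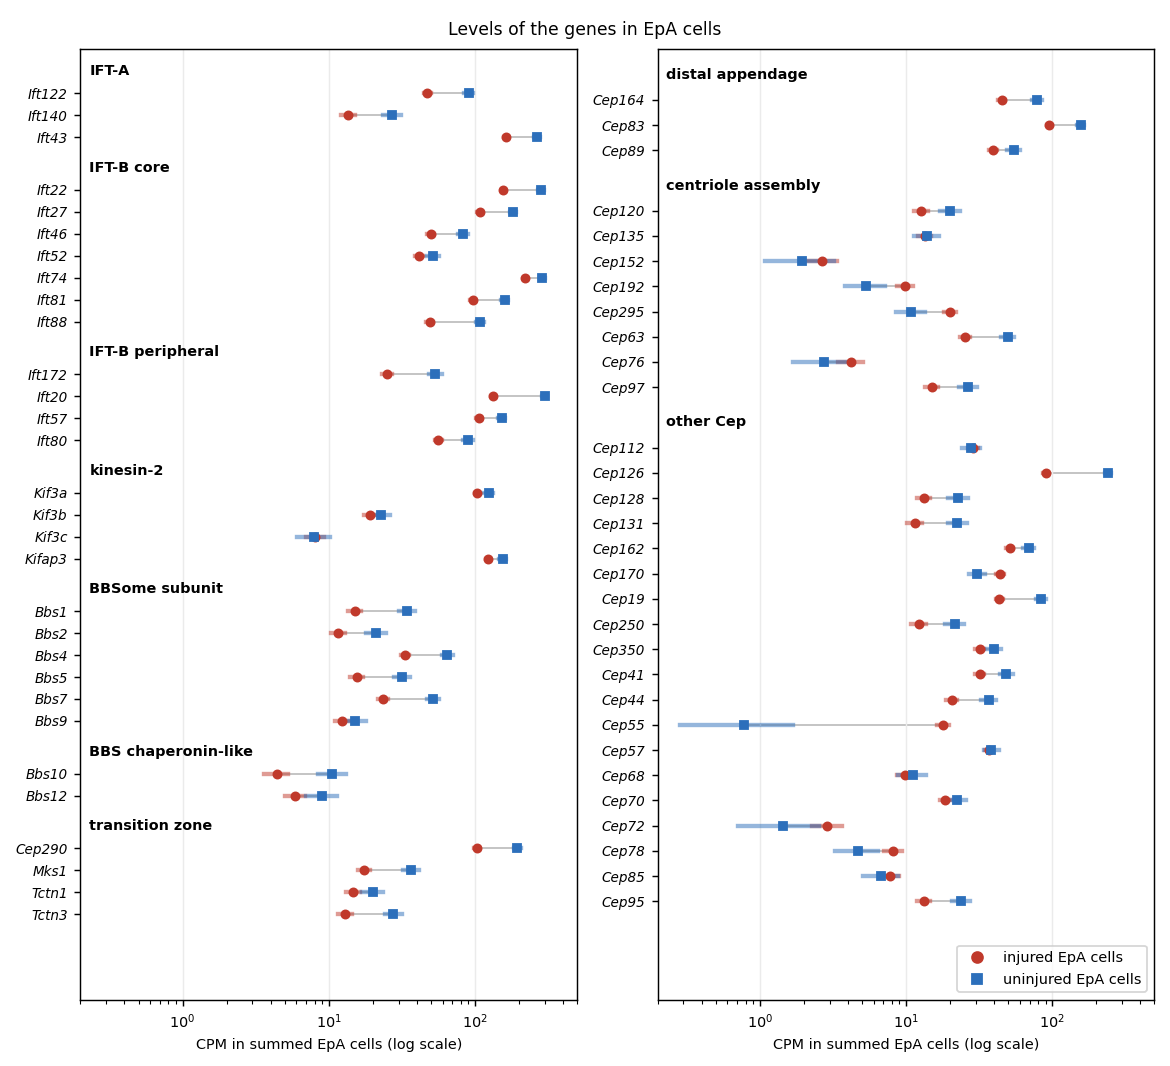
Level of each of 60 of the 61 genes, by role, in CPM of the summed EpA cells on a log axis, with circles for the injured and squares for the uninjured library and bars for 95% Poisson intervals (counting error only). The circles lie to the left of the squares for 49 of the 60 genes, and Cep55 lies far to the right in injured cells.

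The Cep genes were more mixed. Of 32, 25 were measured, and Cep126 had the lowest ratio of all 51 measured genes. Cep126 (chr9:8076461-8134294, minus strand) encodes a centrosome and ciliary base protein that human cells need to organise microtubules. It had 90.1 CPM in injured and 240 CPM in uninjured EpA cells, a ratio of 0.376 (0.354 to 0.400), and was the only measured Cep gene past 2-fold. The distal appendage genes Cep164, Cep83 and Cep89, which dock the centriole at the membrane, had log2 ratios of −0.81, −0.72 and −0.46.

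Next lowest after Cep126 were genes of several roles. Cep63, a partner in centriole duplication, had 25.3 CPM in injured and 49.6 CPM in uninjured EpA cells (−0.97). Cep131, a protein of the centriolar satellites, had 11.5 and 22.5 CPM (−0.97). Cep19, which in human cells helps to start the entry of IFT trains, had 43.5 CPM in injured and 83.8 CPM in uninjured EpA cells (−0.95). Cep95 had 13.2 and 23.9 CPM, and Cep44 had 20.6 and 36.9 CPM. The centriole cap protein gene Cep97 had 15 and 26.7 CPM, and the centrosome linker gene Cep250 had 12.2 and 21.6 CPM (both −0.83).

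At the other end, 3 measured genes had a ratio above 0. Cep295, needed in human cells for a new centriole to become a centrosome, had 20 CPM in injured and 10.8 CPM in uninjured EpA cells, a log2 ratio of 0.89. Cep170, a protein of the subdistal appendages and of spindle microtubules, had 44.0 and 30.7 CPM (0.52). Cep112 had 28.7 and 28.0 CPM (0.04). Cep57 had 37.1 CPM in injured and 38.4 CPM in uninjured cells, Cep135 13.4 and 13.9 CPM, and Cep68 9.92 and 11.1 CPM. For these 3 the interval of the ratio took in 1. Cep70 had 18.6 CPM in injured and 22.2 CPM in uninjured cells.

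Cep55 (chr19:38055011-38074423, plus strand) lay under the floor and was named after its values were seen. Its product acts at the midbody in the last step of cell division. It had 17.9 CPM (16.3 to 19.7) in injured and 0.780 CPM (0.286 to 1.70) in uninjured EpA cells, a ratio of 23.0 (10.5 to 63.0). The 454 injured UMIs came from 115 of 1004 cells, and the 6 uninjured UMIs from 2 of 555 cells, 5 of them in 1 cell. Microglia or macrophage-like cells, which can divide too, held it in 4 of 30 injured and 0 of 36 uninjured cells, so the share of cells did not set injured EpA cells apart from them. At 2000 UMIs per cell it was seen in 2.02% of injured EpA cells and in 0 of 547 uninjured ones, which allows up to 0.548% of cells with a UMI at this depth and does not limit the share that express it. Other genes under the floor with a ratio above 0 and an interval above no difference were Cep192, with 9.84 and 5.33 CPM, Cep78, with 8.18 and 4.68 CPM, and Cep72, with 2.89 and 1.43 CPM in injured and uninjured EpA cells.

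Other genes of the same machinery, from lists that hold none of the 61, were counted in the same way. Over all genes measured, 10.6% were 2-fold lower and 9.76% higher. The other IFT, IFT dynein and IFT-linked genes had a median log2 ratio of −0.87 over 15 measured, of which 6 were 2-fold lower and 0 higher. The dynein-2 heavy chain gene Dync2h1, the motor of the return trip, had 66.1 CPM in injured and 138 CPM in uninjured EpA cells (−1.06), and the IFT-A gene Wdr19 had 24.3 and 59.7 CPM (−1.30). Hspb11, also called Ift25, went the other way, with 76.3 CPM in injured and 47.6 CPM in uninjured cells (0.68), while its partner Ift27 was lower. Of the 5 other BBSome genes 2 were 2-fold lower, and of 12 measured transition zone genes 4 were, each list with a median of −0.81. Tmem231 had 12.8 and 34.9 CPM (−1.44) in injured and uninjured EpA cells, and Tmem107 had 180 and 402 CPM (−1.16).

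Of 15 measured centriole and deuterosome genes, 3 were 2-fold lower (background 10.6%) and 1 was higher (background 9.76%), with a median of −0.43. The higher one was Plk4, the kinase that starts centriole duplication, with 16.7 CPM in injured and 3.77 CPM in uninjured EpA cells (2.12). The lower ones were Sclt1, a distal appendage gene (−1.27), Poc5 (−1.01) and the centrin gene Cetn4 (−1.10).

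The genes of a motile cilium list, not all of them parts of the axoneme, were further apart between the libraries. Their median log2 ratio was −1.52, and 40 of 41 measured were 2-fold lower (background 10.6%). To see the 61 genes in cells with more and with fewer transcripts of this list, EpA cells were thinned to 2000 UMIs. They were parted at the 5th percentile of uninjured cells for the list, which holds none of the 61. The split lay at 17 UMIs of the list, or 0.850% of a cell's UMIs. It left 560 injured cells below the range of uninjured cells and 432 in it, and 20 uninjured cells below and 527 in it. The list summed to 1672 CPM in injured cells below the range, 13244 CPM in those in it and 14332 CPM in uninjured cells in it. Kept cells outside EpA had 382 CPM of it in the injured and 404 CPM in the uninjured library. Cells below the range thus held fewer of these transcripts but did not lack them. The split is a point on a continuum, since 114 injured and 65 uninjured cells lay within 20% of it.

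In the 432 injured cells in the range, the genes stood near their uninjured level. Their summed level was 4380 CPM, against 4185 CPM in the 527 uninjured cells in the range. Of 51 measured genes 0 were 2-fold lower (background 0.152%) and 0 were 2-fold higher (background 0.876%). Log2 ratios ran from −0.40 to 0.62 with a median of 0.04, against a median of 0.02 over all 8560 genes measured. The genes thus did not stand out from the others in these cells. Ift88 had 123 CPM in these injured cells and 109 CPM in the uninjured ones, Bbs1 35.6 and 34.8 CPM, Mks1 37.7 and 37.5 CPM, and Cep126 234 and 241 CPM. The widest differences were in Bbs9, at 23.4 and 15.2 CPM (0.62), and in Cep63, at 37.5 and 49.5 CPM (−0.40). The median depth of the cells was alike, at 11488 UMIs in injured and 11451 in uninjured cells.

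In the 560 injured cells below the range the summed level was 1991 CPM. Of 52 measured genes, 31 were 2-fold lower than in uninjured cells in the range (background 16.4%) and 2 were higher (background 13.3%), with a median log2 ratio of −1.14. Cep126 had 42.5 CPM in these injured cells and 241 CPM in uninjured cells in the range (−2.51), and Ift88 had 24.3 and 109 CPM (−2.17). Bbs1 had 8.32 and 34.8 CPM (−2.06), Bbs7 14.3 and 51.9 CPM (−1.86), and Mks1 10.6 and 37.5 CPM (−1.82). The 9 genes past 2-fold over all EpA cells lay between −2.51 and −1.52 in the cells below the range, and between −0.18 and 0.17 in those in it. The 9 were chosen on all injured EpA cells, of whose 25296289 UMIs the cells below the range gave 18997916. Low ratios of the 9 below the range are therefore no separate evidence. The 3 measured kinesin-2 genes had a median of −0.48 below the range. Cep112 and Cep57 had log2 ratios of 0.00.

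The 2 higher genes were Cep295, with 22.5 CPM in injured cells below the range and 10.9 CPM in uninjured cells in it, and Cep55. Cep55 had 452 UMIs in the injured cells below the range and 0 in the uninjured cells, which is at least 58.9-fold higher against a floor of 3 counts over the group. The cells below the range were deeper, with a median of 28450 UMIs and 5.02% mitochondrially encoded UMIs, against 11451 UMIs and 11.1% in the uninjured cells. Pericyte or smooth muscle markers summed to 159 CPM in the injured cells below the range, 34.4 CPM in those in it and 26.5 CPM in uninjured cells in it. Oligodendrocyte progenitor markers summed to 40.6, 1.91 and 0.269 CPM in the same 3 groups, with Sox10 at 0 in each. Ependymal markers summed to 1394, 11893 and 13391 CPM in the same 3 groups. Of these markers Tmem212, Ccdc153 and Dynlrb2 are also in the motile cilium list that split the cells. The part of these markers in the difference was not tested. Within 5000 to 20000 UMIs, a setting chosen after seeing the data, 141 injured cells lay below the range with a median of 14932 UMIs. There 14 of 50 measured genes were 2-fold lower and 0 were higher, with a median of −0.69, so depth moved with the size of the difference. The share over all genes was not computed in that setting.

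**Figure D2:**
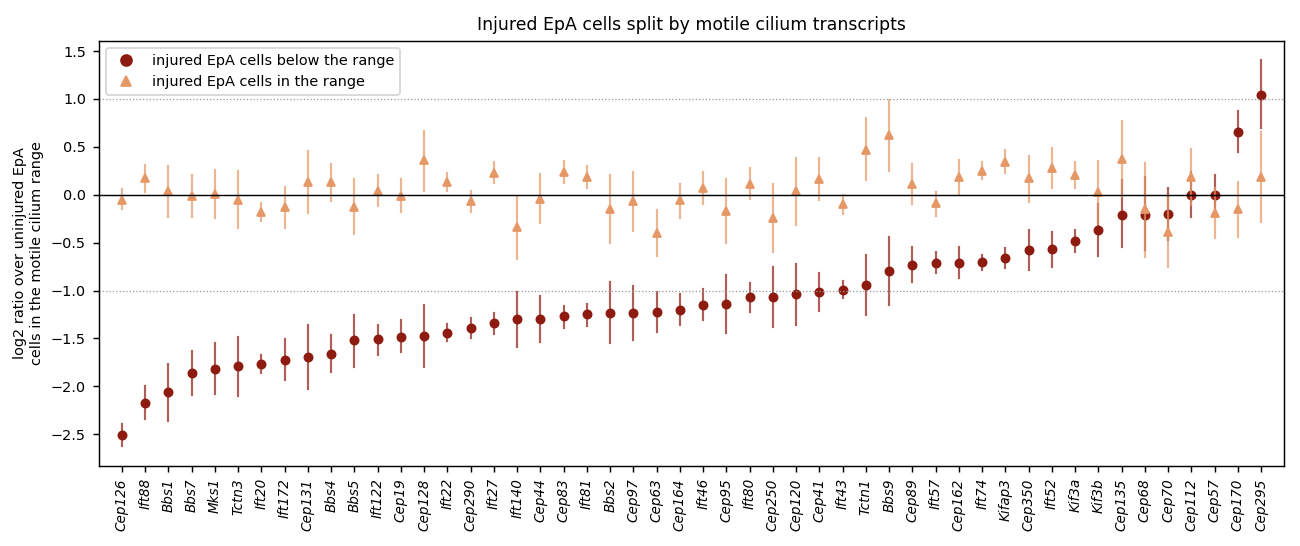
Log2 ratio of each gene over uninjured EpA cells in the motile cilium range, for injured cells below the range (circles) and in it (triangles), with 95% counting intervals, for 50 of the 51 genes measured in both and ordered by the circles. The triangles stay between −0.40 and 0.62, and 46 of the 50 circles lie below their triangle.

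Other genes of the machinery were split in the same way. Below the range, 13 of 15 measured genes of the other IFT list were 2-fold lower (median −1.37), and 3 of 5 other BBSome and 8 of 12 other transition zone genes were. The background there was 16.4% of all genes measured. In the range, 0 of 15, 0 of 5 and 0 of 13 were, near the background of 0.152%. The centriole and deuterosome genes differed less below the range, with a median of −0.58. Of 15 measured there, 5 were 2-fold lower (background 16.4%) and 1 was higher (background 13.3%). In the range 0 of 14 were lower and 0 were higher.

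Counted per cell, the 61 genes gave few UMIs. At 2000 UMIs per cell the median EpA cell held 6 UMIs of these genes in the injured and 8 in the uninjured library, and the 5th to 95th percentiles were 1 to 13 and 3 to 13. Microglia or macrophage-like cells, which lack motile cilia, had medians of 1 and 1.5. Injured cells below the range held a median of 4 and injured cells in it a median of 9. Ift88 was seen in 13.0% (11.0 to 15.3) of injured and 18.5% (15.3 to 22.0) of uninjured EpA cells at this depth, against 1 of 26 and 1 of 30 microglia or macrophage-like cells. Without thinning the shares were 60.5% and 68.6%, against 3 of 30 and 1 of 36 such cells, whose median depths were 21186 and 7172 UMIs. Ift20 was seen in 27.1% of injured and 42.2% of uninjured EpA cells, but also in 1 of 26 and 9 of 30 microglia or macrophage-like cells, so its transcripts were not limited to EpA cells. Cep126 was seen in 22.2% of injured and 38.0% of uninjured EpA cells, and in 0 of 26 and 0 of 30 microglia or macrophage-like cells, which allows up to 11.5% and 10.0% of cells with a UMI at this depth and does not limit the share that express it. Without thinning it was seen in 3 of 30 and 0 of 36 such cells.

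**Figure D3:**
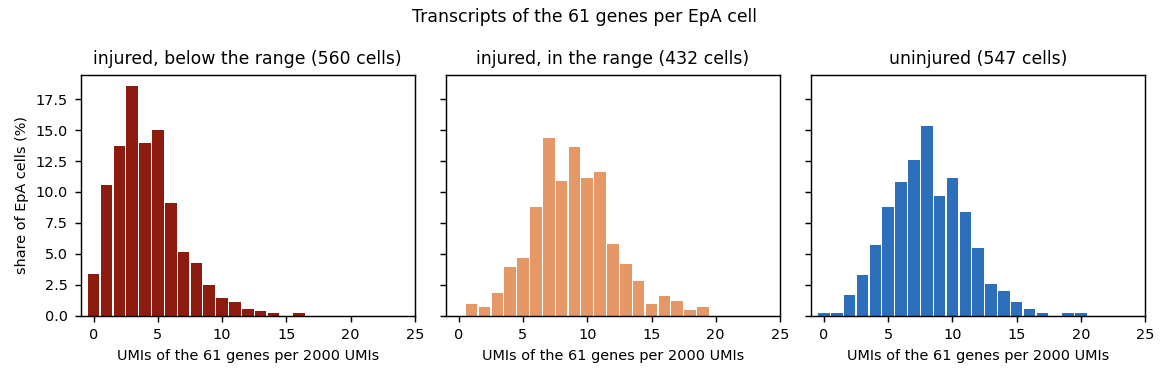
Share of EpA cells (y axis, percent) by the number of UMIs of the 61 genes in cells thinned to 2000 UMIs (x axis), for injured cells below the motile cilium range, injured cells in it and uninjured cells. The medians are 4, 9 and 8 UMIs.

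The genes also differed between injured EpA cells with and without transcripts of cell division. Injured EpA cells with at least 2 of 10 core mitosis genes in 2000 UMIs numbered 119, and those with 0 numbered 813. Cells with just 1 were in neither group. The words without mitosis transcripts refer to the 2000 UMIs drawn. At full depth the 813 cells still held 383 UMIs of Cenpf and 100 of Mki67. Of the 119, 118 lay below the motile cilium range (21.1% of the 560 cells there) and 1 in it (0.231% of 432). The mitosis list holds none of the 61. Of 51 measured genes, 17 were 2-fold lower in the cells with mitosis transcripts (background 13.2%) and 4 were higher (background 7.81%), with a median log2 ratio of −0.65.

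The 4 higher genes were all Cep genes. Cep55 had 63.3 CPM in cells with and 1.56 CPM in cells without mitosis transcripts, a ratio of 40.6 (27.3 to 62.8). Cep192, a scaffold of the mitotic centrosome, had 22.4 and 4.92 CPM (2.18), and Cep295 had 46.8 and 10.5 CPM (2.15). Cep70, a centrosomal protein gene, had 31.1 and 14.5 CPM (1.10). Under the floor, Cep72 had 8.18 CPM with and 0.901 CPM without mitosis transcripts, Cep76 9.24 and 2.28 CPM, and Cep152, the scaffold of Plk4, 5.30 and 1.68 CPM.

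The 17 lower genes were mostly of transport and gate. Bbs1 had 4.24 CPM in cells with and 20.1 CPM in cells without mitosis transcripts (−2.22), Ift88 15.2 and 63.8 CPM (−2.07), Bbs4 10.8 and 43.6 CPM (−2.01), and Mks1 5.61 and 22.5 CPM (−1.99). Cep126 was lowest, with 22.7 and 120 CPM (−2.40). Cep83 and Cep19 were also among the 17 (−1.26 and −1.16). The 15 measured Cep genes with no distal appendage, centriole assembly or transition zone role had 9 ratios below 0 and 6 above. Each measured IFT, BBSome, transition zone and kinesin-2 gene of the 61 had a ratio below 0. In the lists of other IFT, BBSome and transition zone genes, some measured genes lay above 0: Tmem237 (0.48), Mkks (0.25), Tulp3 (0.23) and Hspb11 (0.11). Of 15 measured centriole and deuterosome genes, 2 were 2-fold lower (background 13.2%) and 2 were higher (background 7.81%), with a median of 0.02. The 2 higher ones were Plk4 (3.36) and Sass6 (1.70). The cells with mitosis transcripts had a median of 51950 UMIs and those without 17485. The motile cilium list summed to 773 CPM in the cells with and 6266 CPM in the cells without mitosis transcripts. The ependymal markers summed to 530 and 5589 CPM in the same order, against 475 CPM in injured kept cells outside EpA. Depth, motile cilium content and division cannot be told apart here. Over EpA cells without any of the core mitosis genes, 813 injured and 512 uninjured, 0 of 50 measured genes were 2-fold lower and the median injured to uninjured log2 ratio was −0.59. Ift88 stood there at −0.74 and Cep126 at −0.99.

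**Figure D4:**
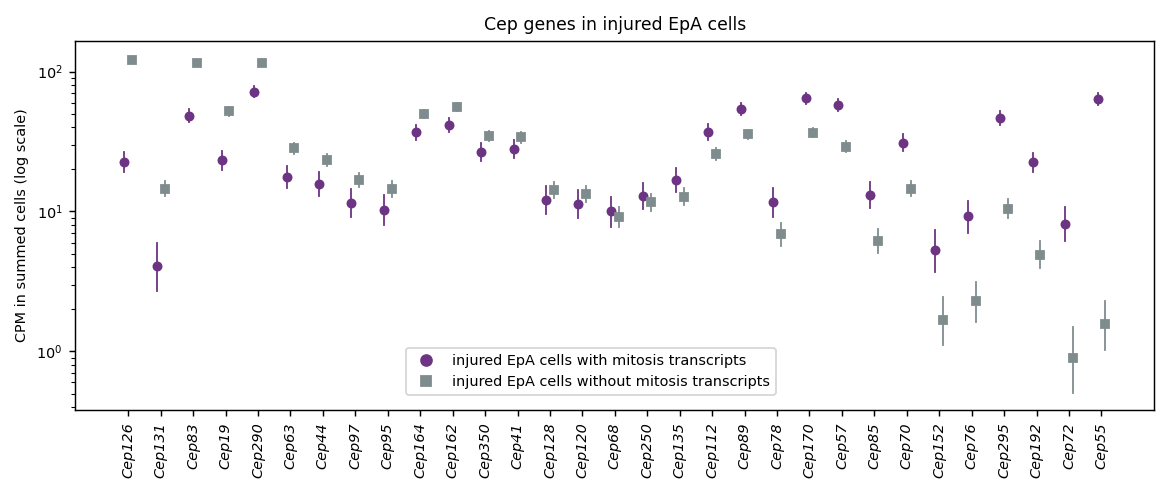
Level of each of 31 of the 32 Cep genes in CPM (log axis) in injured EpA cells with (circles) and without (squares) mitosis transcripts, with 95% Poisson intervals, ordered by the ratio. Cep126 is at the left with 22.7 CPM in cells with and 120 CPM in cells without, and Cep55 at the right with 63.3 and 1.56 CPM.

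Against the kept cells outside EpA, the EpA cells stood higher for most of these genes in both libraries. In the injured library the summed level was 2586 CPM in EpA cells and 1065 CPM (1041 to 1090) in the others. In the uninjured library it was 4158 CPM in EpA cells and 1038 CPM (983 to 1096) in the others. In the injured library, 44 genes were measured, of which 26 were 2-fold higher in EpA cells (background 17.6%) and 0 lower (background 12.5%), with a median log2 ratio of 1.16. In the uninjured library, 52 were measured, of which 38 were 2-fold higher in EpA cells (background 18.8%) and 3 lower (background 24.0%), with a median of 1.74. A gene can pass the floor through its level in EpA cells alone. Without the floor, 50 of the 61 ratios were above 0 in each library.

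Cep126 set the EpA cells apart most, with 90.1 CPM in EpA and 11.8 CPM in other cells of the injured library, and 240 and 7.80 CPM in those of the uninjured library. Ift81 had 96.3 and 15.5 CPM in EpA and other cells of the injured library, and 160 and 7.80 CPM in those of the uninjured one. Bbs1 had 15.1 and 2.44 CPM, then 34.3 and 1.56 CPM, in the same order. Ift20 was an exception, with 132 CPM in EpA and 143 CPM in other cells of the injured library, against 299 and 119 CPM in the uninjured one. The 3 genes lower in EpA cells of the uninjured library were Cep295, with 10.8 CPM in EpA and 23.4 CPM in other cells, Cep68, with 11.1 and 25.7 CPM, and Cep85, with 6.76 and 14.0 CPM. With TMM scaling, which adds 0.18 to each log2 ratio there, 1 was lower, and the share over all genes was not computed.

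The cells outside EpA were of several kinds, named from clusters by markers. Endothelial-like cells (115 injured, 51 uninjured) had 1071 and 1013 CPM of the 61 genes. Fibroblast-like cells (35 and 30) had 1022 and 1041 CPM, and microglia or macrophage-like cells (30 and 36) had 725 and 874 CPM. Astrocyte-like cells were few, 6 injured and 30 uninjured, with 1850 CPM (1519 to 2232) and 1238 CPM (1099 to 1389). Each of these kinds of cell thus held less than the EpA cells of its own library. A further 21 injured and 4 uninjured cells took no name, with 704 and 789 CPM of the 61 genes and with Cd74 and Cd79a among their leading genes. The remaining cells outside EpA lay in clusters made up mostly of EpA cells, and their part in the comparison was not tested.

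The BBSome genes summed to 111 CPM in injured and 218 CPM in uninjured EpA cells, and to 25.7 and 42.9 CPM in endothelial-like cells. The kinesin-2 genes summed to 253 CPM in injured and 309 CPM in uninjured EpA cells, and to 86.5 and 103 CPM in endothelial-like cells. In microglia or macrophage-like cells they summed to 71.8 CPM in the injured and 116 CPM in the uninjured library, and in fibroblast-like cells to 104 and 62.9 CPM. In astrocyte-like cells the kinesin-2 genes had 289 (168 to 462) and 213 CPM (158 to 281), from 17 and 50 UMIs, and the BBSome genes had 67.9 (18.5 to 174) and 68.3 CPM (39.0 to 111). Ift20 stood at 256 CPM in injured and 194 CPM in uninjured fibroblast-like cells, and at 130 and 127 CPM in endothelial-like cells.

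**Figure D5:**
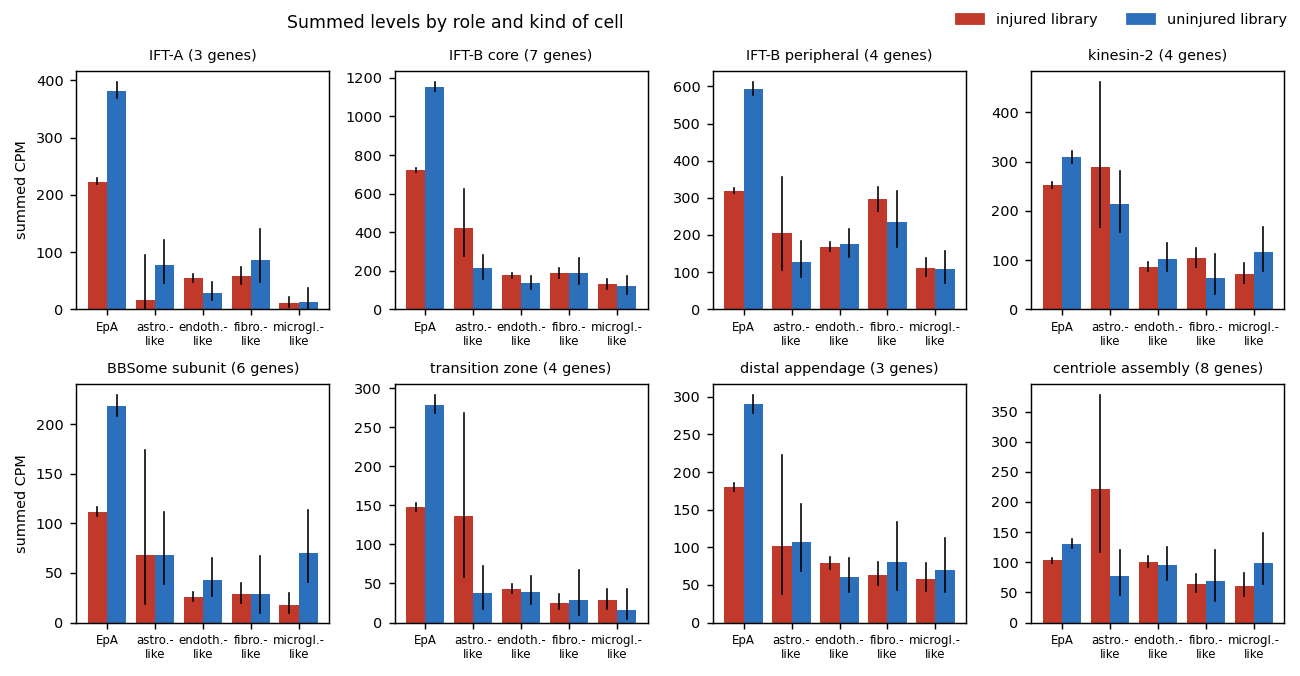
Summed level (CPM) of the genes of 8 roles in EpA cells and in 4 other kinds of kept cells, with the injured library left and the uninjured library right in each pair and 95% Poisson intervals. EpA cells have the highest bars for the IFT, BBSome and transition zone genes. The wide intervals of the 6 injured astrocyte-like cells reach above the injured EpA level for the peripheral IFT-B, BBSome and transition zone genes. For the peripheral IFT-B genes the interval of injured fibroblast-like cells, 296 CPM (265 to 329), also reaches above the injured EpA level of 319 CPM.

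Outside EpA the ratios between the injured and uninjured libraries depended on how they were computed. Of 36 measured genes, 1 was 2-fold lower in injured cells (background 19.7%) and 1 was higher (background 8.31%), with a median log2 ratio of 0.06. The lower one was Bbs9, with 5.02 CPM in injured and 15.6 CPM in uninjured cells, from 35 and 20 UMIs. The higher one was Cep55, with 165 UMIs in injured cells and 1 in uninjured cells, a ratio of 30.3 (5.37 to 1206). Most of these Cep55 UMIs, 138, came from endothelial-like cells. TMM scaling adds 0.31 to each log2 ratio here, and then 0 genes were lower, 3 were higher and the median was 0.39. After thinning every cell to 2000 UMIs, 8 were lower and 4 higher with a median of −0.40, while in EpA cells 1 was lower and 0 higher with a median of −0.36. Shares over all genes were not computed with TMM scaling or after thinning. Whether EpA and other cells differ in these ratios was not tested. The makeup of these cells differed between the libraries: astrocyte markers summed to 131 CPM in injured and 1580 CPM in uninjured cells, and neutrophil markers to 1.58 and 11139 CPM. Their part in the ratios was not tested.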

How the data were processed

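The deposited tables hold raw counts of UMIs per gene and cell, as their whole numbers show. Sorted cells went through a 10x Genomics 3′ kit, per the labels. The submitters' processing notes name Cell Ranger 3.0.1, Seurat and the mm10 build. The gene annotation is not given in the sources used here. Where tables share cells and genes, their counts were identical. Counts were summed over the EpA cells, and over kept cells outside EpA, of each library and scaled to 1000000. Log2 ratios used 0.5 added counts. Levels carry exact Poisson, ratios conditional binomial and shares Clopper-Pearson intervals. UMIs limit duplicates from amplification, and intervals cover counting error only, since cells are not replicates. A gene was measured when both groups' mean reached 10 CPM, and called at 2-fold, by size. Cells were thinned without replacement to 2000 UMIs, leaving out 12 injured and 8 uninjured EpA cells.

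Kept cells were clustered with scanpy 1.11.5 on 2000 variable genes without the 61 members, with 20 components, 15 neighbours and Leiden resolution 0.5. A cluster took a name with at least 3 of its markers over 100 CPM and 3-fold over other cells, conditions set after the clusters had been seen, so cell kinds are rebuilt names. One endothelial-like cluster was led by hemoglobin genes. No doublets were removed. edgeR 4.0.16 gave TMM factors, and R 4.3.3, Python 3.11.15 and scipy 1.17.1 were used. The calculation was tested on simulated data. GENCODE M21 gave gene positions on GRCm38. No gene overlapped a protein-coding gene on its own strand, and 9 overlapped one on the other strand (Bbs4, Bbs12, Cep63, Cep250, Cep290, Cep295, Ift74, Ift140 and Tctn1). How the counting used strand is not given in the sources used here, so their values are less certain.

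The 61 members and the lists were chosen with earlier results of these data known. Levels of the measured IFT, BBSome, kinesin-2 and transition zone genes are given, with the 8 highest and 8 lowest ratios among measured Cep genes, except 1 gene that is not reported here and is counted but not plotted by name. Outside the members, values come from the machinery lists.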

Additional observations from a re-analysis of the deposited data

How the results depend on the processing

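No paired analysis was possible because each condition has 1 library, and for the same reason no sample could be checked against others of its group. The ratio of injured over uninjured EpA cells (9 of 51 genes 2-fold lower, 0 higher, median log2 −0.73) gave 16 lower without mitochondrially encoded UMIs in the total. Without scaling, UMIs per cell gave 0 lower, 2 higher and a median of 0.13, the one reversal. The mean of CPM per cell gave 0 lower (−0.40), thinned cells 1 (−0.36) and cells of 5000 to 20000 UMIs 0 (−0.16). A filter of 1000 UMIs and under 10% of them mitochondrially encoded, which kept 819 injured and 176 uninjured cells, gave 21 lower and 2 higher (−0.96). Cells with no core mitosis gene in 2000 UMIs gave 0 lower, and a floor of 50 CPM in either library 5 of 24. No floor gave 1 higher, and a 1.5-fold rule 32 lower and 1 higher. For EpA over other cells, the uninjured library gave 1 lower with TMM and 5 with no floor, against 3. The injured library gave 2 lower and a median of 1.49 after thinning, against 0 and 1.16. Outside EpA, TMM gave 0 lower and 3 higher, thinning 8 and 4, and no floor 7 and 2, against 1 and 1. Thinning to 5000 UMIs gave Ift88 shares of 29.3% in injured and 39.9% in uninjured EpA cells and a Cep55 share of 3.19% in injured cells. Without thinning these were 60.5%, 68.6% and 11.5%, against 13.0%, 18.5% and 2.02% at 2000 UMIs. Within 5000 to 20000 UMIs, added after seeing the data, cells below the motile cilium range gave 14 lower and 0 higher (−0.69), against 31 and 2 (−1.14). The causes of these shifts were not tested, and shares over all genes were computed for the main settings alone. Each of the 9 lower genes stayed below 0 in every setting tried, but in cells of 5000 to 20000 UMIs they lay between −0.56 and −0.03, against −1.41 and −1.03. Another split (25th percentile), another mitosis rule, shared barcodes left out and 5 further symbols moved no count by over 1.5 times. Variation between animals cannot be measured with these libraries.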

Other observations

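The tables also hold 338 injured and 165 uninjured barcodes that the authors did not keep. The 61 genes summed to 2280 CPM in the injured and 3460 CPM in the uninjured ones, and the motile cilium list to 4235 and 11222 CPM. Their median depth was 2350 and 2272 UMIs.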
